A study of Homo sapiens with 6 samples.

Results

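The expression of 10 genes for interferon and interleukin receptor chains was measured in PANC1 cells, a line grown from a human pancreatic ductal carcinoma, after treatment with vehicle or gemcitabine, to ask which of them changed with the drug. The genes were taken as a list of names that was chosen with earlier results of these data known. They were IFNAR1, IFNAR2, IFNGR1, IFNGR2, IL10RB, IL6ST, LIFR, OSMR, IL27RA and IL4R. All 10 were found by Ensembl identifier among the 20461 genes of the deposited table. Cells were grown for 24 h and then held for 48 h in 0.1% DMSO, the vehicle, or in 50 nM gemcitabine, a deoxycytidine analogue used against pancreatic cancer that stalls DNA replication. RNA-seq was done on 2 biological replicates per condition, and DNaseI-seq, which maps chromatin open to the nuclease DNaseI, on 1 sample per condition. The labels name no other agent or genetic change for either group, all samples come from 1 cell line, and nothing beyond the term biological replicate says how far the cultures were kept apart.

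Cytokine receptors of this class have no kinase of their own. Their chains sit in the membrane in pairs or larger complexes, and when a ligand draws the chains together the Janus kinases bound to their tails phosphorylate STAT transcription factors, which enter the nucleus. IFNAR1 and IFNAR2 form the receptor of the type I interferons, and IFNGR1 and IFNGR2 that of interferon gamma. IL10RB is the shared chain of the receptors for IL-10, IL-22, IL-26 and the type III interferons, and gp130, the product of IL6ST, is the shared chain for IL-6, IL-11, LIF, oncostatin M and IL-27. LIFR, OSMR and IL27RA are partners of gp130, whereas IL4R carries the signals of IL-4 and IL-13. Epithelial cells, from which pancreatic carcinoma arises, commonly carry most of these chains and so can answer cytokines made by immune cells and fibroblasts.

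After gemcitabine, IL10RB, IL27RA, IFNGR1 and IFNAR1 rose, and the other 6 genes did not pass the test. A gene passed the test when its adjusted p in the quasi-likelihood test of edgeR, with Benjamini-Hochberg adjustment over the 14854 genes tested, was under 0.05. It was called when it also changed over 1.5-fold, reached a mean of at least 0.1 FPKM in a condition and differed by at least 1 FPKM between the condition means. FPKM counts the fragments of a gene relative to transcript length in kilobases and to library depth. Of all genes tested, 18.5% passed the test as higher, 20.0% passed as lower, 5.69% were called higher and 4.42% called lower, 10.1% in all. Of the 10 receptor genes, 4 passed as higher and 0 as lower, and 0 were called. None of the 10 was lower at an unadjusted p under 0.05 in edgeR either, and DESeq2 and limma gave 0 lower genes as well. The authors, with the program Cuffdiff and limits of the same size, named IL10RB and IL27RA among their differentially expressed genes. They quantified FPKM, whereas the fold used for a call here was fitted to fragments by edgeR. In mean FPKM, IL10RB differed 1.68-fold and IL27RA 1.55-fold, both over 1.5. The authors' results are headed with other replicate numbers than the deposited values, so the libraries behind them may differ. The median log2 fold change was 0.11 over the 10 genes and 0.01 over all genes tested, with 8 of the 10 above 0 against 50.7% of all genes. Because the list was chosen with earlier results known, shares of the 10 beside all genes describe the list and do not test it. DESeq2 passed 3 of the 10 as higher and called 1, which was IL10RB. The number that passed was 1 without the first or the second vehicle library, and 1 in limma on log2(FPKM + 1) or log2(FPKM + 0.1).

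The table held 13194533 to 15766237 fragments assigned to genes per library. A count of 3 fragments, taken as the limit of detection, stood for 0.190 to 0.227 CPM (fragments scaled to the library total). This limit covers counting error only. Over all genes the replicates of a condition differed by more than counting noise, the gemcitabine pair (chi-square of 5.16 for the average gene) more than the vehicle pair (2.17). The keratins KRT7, KRT8 and KRT18 and the intermediate filament gene VIM had mean levels of 398 to 1549 FPKM, whereas the ductal keratin KRT19 was at 4.75 FPKM and the epithelial adhesion genes EPCAM and CDH1 at 3.0 and 0.39 FPKM. KRT19 was called higher after gemcitabine, at 1.13 on the log2 scale (adjusted p = 0.000651 in edgeR). Of 8 leukocyte and erythroid markers, 7 had a mean under 0.1 FPKM, and CD3E and LYZ were at 0 in every library. The summed level of the list was 0.0117 to 0.0538 FPKM in vehicle and 0.392 to 0.557 FPKM in gemcitabine libraries, on few fragments. PTPRC, the only marker of that list with enough fragments to be tested, had 4 and 2 against 9 and 5 fragments. It did not pass (adjusted p = 0.165 in edgeR). Of the 7 fibroblast and endothelial markers with values, 3 had a mean under 0.1 FPKM, while the summed level, 872 to 875 FPKM in vehicle and 1002 to 1114 FPKM in gemcitabine libraries, was mostly COL1A1 at 955 FPKM. In that list LUM was called higher at 0.77 (adjusted p = 0.00375 in edgeR), and VWF passed as higher at 2.01 (adjusted p = 0.000902). The part of these markers in the receptor results was not tested. In bulk RNA, fewer cells that express a gene and less RNA per cell cannot be told apart.

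All 10 receptor genes were expressed in vehicle-treated cells. On the FPKM scale the mean level was highest for IL6ST at 106.6 ± 1.11 (SD, n = 2) and OSMR at 81.6 ± 3.54. IFNGR2 followed at 44.8 ± 2.00, LIFR at 34.4 ± 5.01, IL4R at 26.8 ± 0.803 and IFNAR1 at 20.9 ± 1.46. The lowest were IFNGR1 at 18.6 ± 0.103, IFNAR2 at 17.0 ± 3.99, IL10RB at 16.4 ± 0.339 and IL27RA at 6.36 ± 0.0893. Levels of IFNAR2 spanned those of IFNGR1 and IL10RB, so these neighbours in the order did not differ beyond the spread of their libraries. In FPKM, IL27RA lay below every other gene in both vehicle libraries.

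The place of IL6ST at the top rests on the transcript length behind its FPKM. Its fragments and FPKM together imply a length of 0.50 to 0.60 kb, against 9.03 kb for the canonical transcript of the annotation, while the implied length of OSMR, 4.89 to 5.27 kb, was close to its canonical 5.53 kb. Counted as CPM per kilobase of canonical transcript, a scale added after the data were seen, IL6ST stood at 6.12 to 8.03 in the 4 libraries and OSMR at 74.4 to 85.6. On that scale the other genes ranged from 5.45 to 6.18 for IFNAR2 up to 22.4 to 26.9 for LIFR. In the vehicle libraries IL27RA stood at 5.75 and 5.81, above IFNAR2 at 5.67 and 5.51. The implied length of IFNAR2, 1.17 to 1.59 kb, was also short of its canonical 4.07 kb. OSMR was therefore the highest of the 10 on this scale and IL6ST among the lowest.

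**Figure D1:**
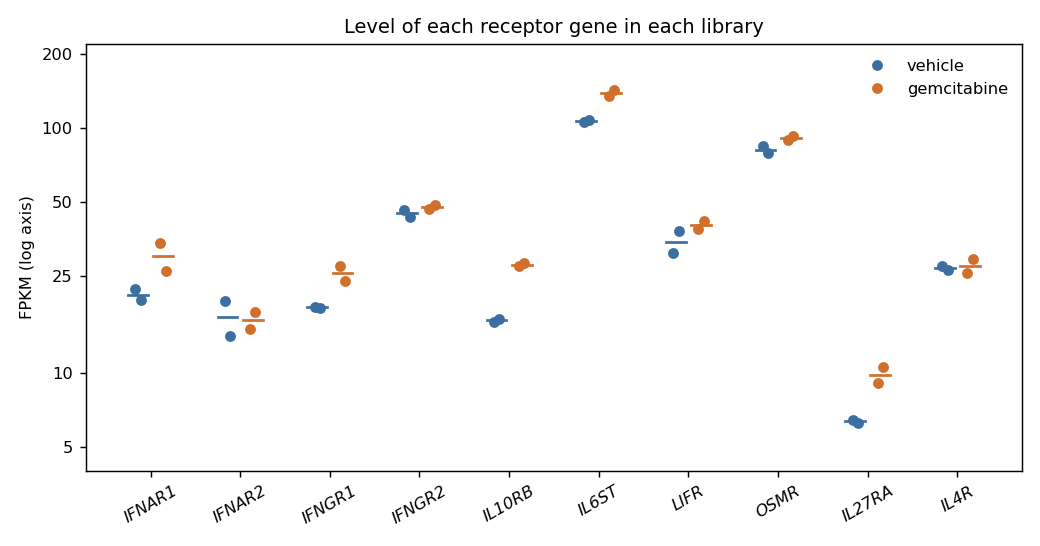
Level of each receptor gene in FPKM (log axis) in the 2 vehicle and 2 gemcitabine libraries. Points are libraries and bars are means, and the gap between conditions is widest for IL10RB, with 16.2 and 16.7 FPKM in vehicle and 27.3 and 28.1 FPKM in gemcitabine libraries.

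IL10RB (ENSG00000243646.4, chr21:34638672-34683725 on the plus strand of hg19) had the largest change of the 10. The vehicle libraries held 478 and 494 of its fragments and the gemcitabine libraries 662 and 685. Its level was 16.2 and 16.7 FPKM in vehicle and 27.3 and 28.1 FPKM after gemcitabine, so the conditions did not overlap and the mean FPKM differed 1.68-fold. The log2 fold change was 0.58 (SE 0.082, adjusted p = 6.54e-05 in edgeR), with a 95% interval of 0.41 to 0.76. It passed the test without each of the 4 libraries in turn, at log2 fold changes of 0.55 to 0.62. IL10RB was not called because the fitted fold change lay just under 1.5, and it was called under 8 of the 8 other tools, scalings and filters.

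IL27RA (ENSG00000104998.2, chr19:14142574-14164030, plus strand), which gives the gp130 complex its specificity for IL-27, had the lowest FPKM and the second largest change. It had 257 and 270 fragments in vehicle and 328 and 374 in gemcitabine libraries, and its levels were 6.42 and 6.30 FPKM in vehicle and 9.14 and 10.6 FPKM after gemcitabine. The conditions did not overlap, the log2 fold change was 0.53 (SE 0.11, adjusted p = 0.00140 in edgeR) and the 95% interval ran from 0.30 to 0.76. Without the first or the second vehicle library the change was 0.53 and 0.54, at adjusted p-values of 0.0660 and 0.0686. Limma on log2(FPKM + 1) gave 0.56 at an adjusted p of 0.0865.

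The promoters of the 2 genes with the largest changes are shown to let the letters at their starts be read beside the values. The sequences are those of RefSeq on GRCh38.p14, 250 bases before to 50 bases after the annotated start, for IL10RB on chr21:33266117-33266416 and for IL27RA on chr19:14031512-14031811, both on the plus strand. Capitals mark a match to the STAT site GAS, TTCNNNGAA, in IL10RB and to the NF-kB consensus in IL27RA.
IL10RB: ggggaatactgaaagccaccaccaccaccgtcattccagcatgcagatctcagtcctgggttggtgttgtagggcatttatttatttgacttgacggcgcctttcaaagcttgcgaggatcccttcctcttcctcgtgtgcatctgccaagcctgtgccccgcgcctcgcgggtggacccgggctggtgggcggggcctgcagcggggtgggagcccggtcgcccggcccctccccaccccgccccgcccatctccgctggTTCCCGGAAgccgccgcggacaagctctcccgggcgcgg
IL27RA: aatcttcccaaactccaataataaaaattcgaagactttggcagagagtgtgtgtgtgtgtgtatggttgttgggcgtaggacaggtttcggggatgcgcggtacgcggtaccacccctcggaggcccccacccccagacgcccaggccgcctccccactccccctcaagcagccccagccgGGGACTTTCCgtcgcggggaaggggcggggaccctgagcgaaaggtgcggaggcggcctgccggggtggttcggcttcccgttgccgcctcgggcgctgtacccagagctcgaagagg
The GAS match began 11 bases after the IL10RB start, and the NF-kB match 68 bases before the IL27RA start. On both strands, 4 motifs were searched, GAS, the core of the interferon-response element ISRE as a pair of GAAA with NN between, the AP-1 site as TGANTCA, and the NF-kB consensus. A match is a description of letters and not a bound site.

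The table of promoters held 9 of the 10 genes with 13 promoters, and IFNAR2 was not among them. Of the 35116 promoters of the same length, 7.66% held GAS, 3.57% the ISRE core, 7.71% AP-1 and 5.91% NF-kB. No receptor promoter held the ISRE core, and 4 of the 13 held an NF-kB match, those of IFNGR1, IFNGR2, IL27RA and IL4R. Their GC content was 64.7 to 80.0%, and among the 12630 promoters with at least 64% GC the NF-kB share was 8.41%. Of these 4 genes IL27RA and IFNGR1 rose after gemcitabine and IFNGR2 and IL4R did not pass the test. GAS matches also lay in both upstream promoters of LIFR, which did not pass, and an AP-1 match 3 bases after the start of OSMR.

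IFNAR1 (ENSG00000142166.8, chr21:34696692-34732170, plus strand) and IFNAR2 (ENSG00000159110.14, chr21:34577587-34637980, plus strand) encode the chains of the type I interferon receptor. IFNAR1 rose and IFNAR2 did not pass the test. IFNAR1 had 824 and 906 fragments in vehicle and 991 and 938 in gemcitabine libraries, at 21.97 and 19.9 against 33.9 and 26.2 FPKM. The conditions did not overlap, and the log2 fold change was 0.27 (SE 0.072, adjusted p = 0.00838 in edgeR) with a 95% interval of 0.12 to 0.43. Without the first or the second vehicle library the adjusted p was 0.141 and 0.0853, at changes of 0.25 and 0.32. The mean FPKM differed 1.43-fold, more than the fragments, and the length implied by fragments and FPKM moved between 2.22 and 2.89 kb over the libraries.

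IFNAR2, which holds the high-affinity site for the ligand, had 350 and 354 fragments in vehicle and 293 and 334 in gemcitabine libraries. Its levels of 19.8 and 14.1 FPKM in vehicle and 15.2 and 17.8 FPKM after gemcitabine overlapped. The log2 fold change was -0.05 (SE 0.10, adjusted p = 0.727 in edgeR), and its 95% interval of -0.28 to 0.17 left room for a fall or a small rise. IFNAR1 fragments per IFNAR2 fragment were 2.35 and 2.56 in vehicle and 3.38 and 2.81 in gemcitabine libraries. The ratio was higher in both gemcitabine libraries, with an exact 2-sided permutation p of 0.333, the smallest that 2 against 2 libraries allow.

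IFNGR1 (ENSG00000027697.8, chr6:137518620-137540586, minus strand), the ligand-binding chain for interferon gamma, rose, whereas IFNGR2 (ENSG00000159128.10, chr21:34775719-34851655, plus strand), the chain that brings JAK2, did not pass the test. IFNGR1 had 538 and 552 fragments in vehicle and 626 and 593 in gemcitabine libraries, at 18.6 and 18.5 against 27.3 and 23.8 FPKM with no overlap. Its log2 fold change was 0.28 (SE 0.081, adjusted p = 0.0147 in edgeR), with a 95% interval of 0.10 to 0.45. Without the first or the second vehicle library the adjusted p was 0.119 and 0.151, and DESeq2 gave 0.0912. IFNGR2 had 598 and 622 fragments in vehicle and 566 and 554 in gemcitabine libraries, and 46.2 and 43.4 against 46.8 and 48.3 FPKM. Its log2 fold change was -0.01 (SE 0.080, adjusted p = 0.937 in edgeR), with a 95% interval of -0.18 to 0.16, and its sign was positive with library totals, with edgeR's own filter and in limma. Fragments of IFNGR1 per fragment of IFNGR2 were 0.900 and 0.887 in vehicle and 1.11 and 1.07 in gemcitabine libraries, again with an exact permutation p of 0.333 at its minimum.

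**Figure D2:**
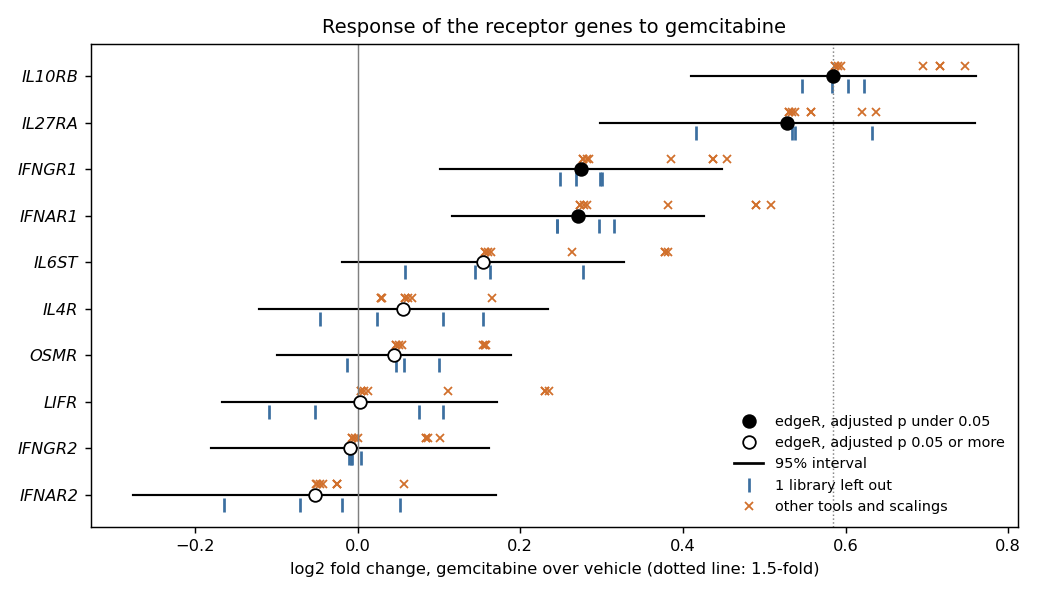
Log2 fold change of each receptor gene, gemcitabine over vehicle, from edgeR with its 95% interval (black), without each library (blue ticks) and under other tools and scalings (orange crosses). IL10RB and IL27RA lie farthest right at 0.58 and 0.53, near the dotted 1.5-fold line, and the intervals of IL6ST, IL4R, OSMR, LIFR, IFNGR2 and IFNAR2 include 0.

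The gp130 chain and its LIF and oncostatin M partners did not pass the test. IL6ST (ENSG00000134352.15, chr5:55230923-55290850, minus strand) had 837 and 1021 fragments in vehicle and 957 and 951 in gemcitabine libraries, which overlapped before scaling. Scaled to depth the conditions did not overlap, at 55.2 and 64.8 CPM against 72.5 and 71.6 CPM and at 105.8 and 107.4 FPKM against 134.5 and 143.3 FPKM. The log2 fold change was 0.15 (SE 0.081, adjusted p = 0.150 in edgeR), with a 95% interval of -0.02 to 0.33. It was 0.06 without the first and 0.28 without the second vehicle library. Scaling to library totals gave 0.26 at an adjusted p of 0.0219, but that scaling moved the median of all genes to 0.12.

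OSMR (ENSG00000145623.8, chr5:38845960-38945698, plus strand), the chain for oncostatin M and, with IL31RA, for IL-31, had the most fragments of the 10, at 6232 and 6576 in vehicle and 5918 and 6282 in gemcitabine libraries. Its levels were 84.1 and 79.1 FPKM in vehicle and 89.3 and 92.8 FPKM after gemcitabine, without overlap, and the log2 fold change was 0.04 (SE 0.067, adjusted p = 0.637 in edgeR). The 95% interval of -0.10 to 0.19 was the narrowest among the genes that did not pass. LIFR (ENSG00000113594.5, chr5:38474770-38608456, minus strand), which lies 237.5 kb from OSMR and binds LIF, had 3578 and 4097 fragments in vehicle and 3317 and 3775 in gemcitabine libraries. Its levels were 30.8 and 37.9 FPKM in vehicle and 38.8 and 41.8 FPKM after gemcitabine. The log2 fold change was 0.0025 (SE 0.079, adjusted p = 0.983 in edgeR), with a 95% interval of -0.17 to 0.17, and leaving out single libraries moved it from -0.11 to 0.11. OSMR had 6.18 to 7.45 fragments per IL6ST fragment over the 4 libraries, with overlap between conditions. LIFR had 4.27 and 4.01 per IL6ST fragment in vehicle and 3.47 and 3.97 in gemcitabine libraries. The LIFR ratio was lower in both gemcitabine libraries, with an exact permutation p of 0.333, the minimum. For IL27RA that ratio was 0.307 and 0.264 in vehicle and 0.343 and 0.393 in gemcitabine libraries.

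IL4R (ENSG00000077238.9, chr16:27324989-27376099, plus strand), the chain that binds IL-4, had 820 and 812 fragments in vehicle and 737 and 831 in gemcitabine libraries. Its levels of 27.4 and 26.3 FPKM in vehicle and 25.7 and 29.1 FPKM after gemcitabine overlapped. The log2 fold change was 0.06 (SE 0.083, adjusted p = 0.628 in edgeR), with a 95% interval of -0.12 to 0.23. Counting by FPKM, both gemcitabine libraries lay above both vehicle libraries for 8 of the 10 receptor genes, all but IFNAR2 and IL4R, against 41.8% of all genes tested. For 0 of the 10 did both lie below, against 20.3%.

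**Figure D3:**
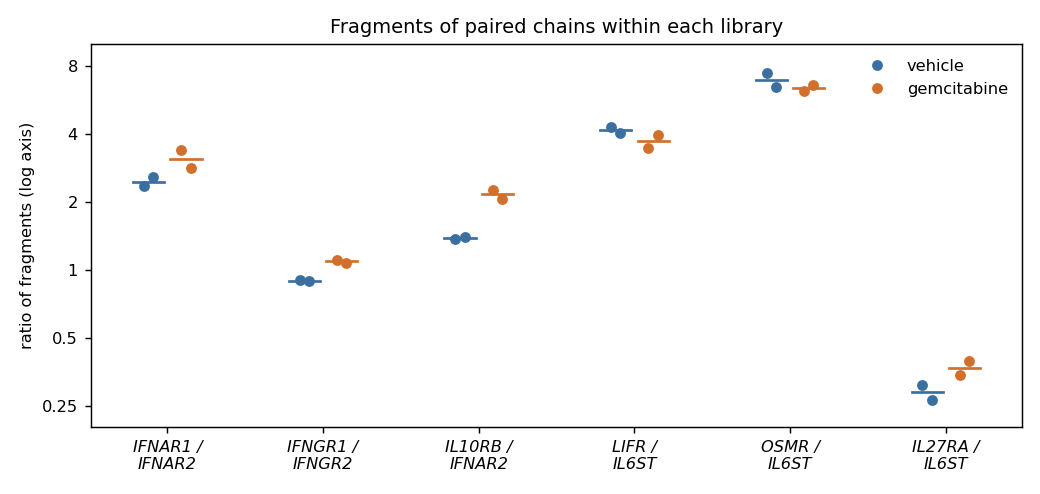
Ratio of fragments of paired receptor chains within each library (log axis), with points for libraries and bars for means. IL10RB per IFNAR2 fragment was 1.36 and 1.40 in vehicle and 2.26 and 2.05 in gemcitabine libraries, and the OSMR to IL6ST ratio overlapped between conditions.

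IFNAR2, IL10RB, IFNAR1 and IFNGR2 lie side by side over 274 kb of chromosome 21, all on the plus strand. In order along the chromosome the log2 fold changes were -0.05, 0.58, 0.27 and -0.01, and IL10RB and IFNAR1 passed the test. Differences among the 4 were not tested beyond the ratios of fragments. IL10RB had 1.36 and 1.40 fragments per IFNAR2 fragment in vehicle and 2.26 and 2.05 in gemcitabine libraries, with an exact permutation p of 0.333, the minimum. The readthrough gene IFNAR2-IL10RB (chr21:34602197-34669465), which joins exons of both, had 10 and 1 fragments in vehicle and 19 and 16 in gemcitabine libraries. It passed the test and was called higher, at 1.76 (SE 0.62, adjusted p = 0.0374 in edgeR), but without the second vehicle library the change was 0.89 at an adjusted p of 0.247, and DESeq2 gave an adjusted p of 0.155. Reads of shared exons can be split between this gene and IFNAR2 or IL10RB, and its counts were small beside those of IL10RB.

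Within 200 kb of this cluster 9 further genes of the table were tested, besides the receptor genes and the readthrough gene. On the far side of IFNGR2, GART, an enzyme of purine synthesis, fell with a log2 fold change of -0.67 (SE 0.066, adjusted p = 2.94e-06 in edgeR), from 2929 and 3066 fragments to 1715 and 1764. SON, a splicing factor, fell with -0.45 at an adjusted p of 0.000154, and ITSN1, an endocytic scaffold, rose by 0.36 at an adjusted p of 0.00123. TMEM50B, which overlaps IFNGR2, was at 0.21 with an adjusted p of 0.114. DNAJC28 was at 1.04 on 5 to 14 fragments with an adjusted p of 0.145. The other tested neighbours did not pass, with DONSON at 0.05, CRYZL1 at 0.01, ENSG00000249209 at 0.18 and C21orf62-AS1 at 0.43 on 2 to 8 fragments. Of the 9 neighbours, 1 thus rose, 2 fell and 6 did not pass.

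**Figure D4:**
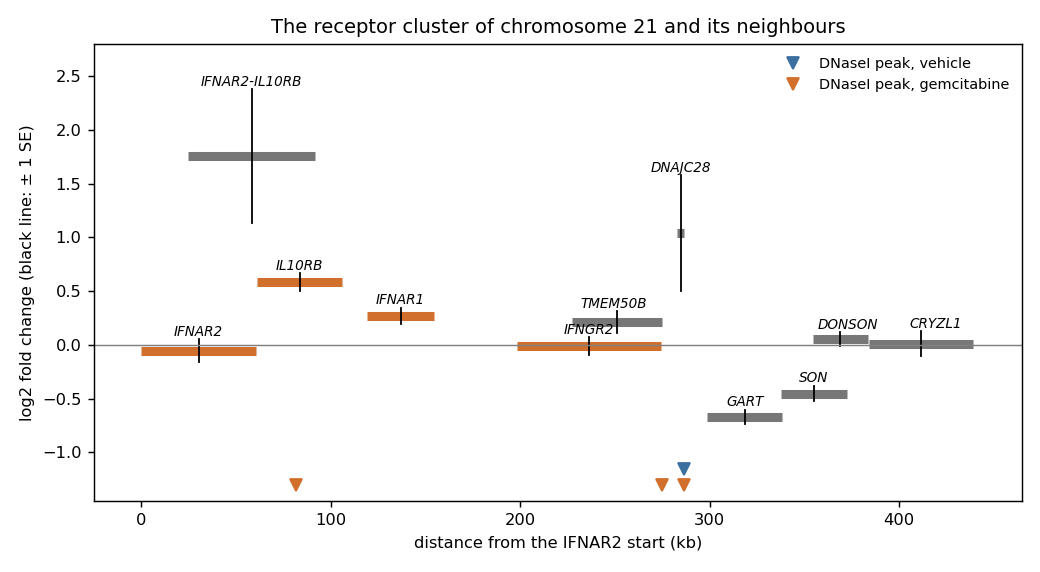
Log2 fold change of the genes of the chromosome 21 receptor cluster and of named neighbours up to CRYZL1, with bars spanning each gene by distance from the IFNAR2 start and black lines for 1 SE. Receptor genes are orange, IL10RB at 0.58 stands between IFNAR2 at -0.05 and IFNAR1 at 0.27, and triangles mark DNaseI peaks of each condition.

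Of the 10 receptor genes, 1 had a DNaseI peak at the start of a coding transcript. The lists hold 9606 peaks in vehicle and 10695 in gemcitabine cells, from 1 library each, so peaks are described without a test. The authors joined such peaks with published PANC1 peaks of the ENCODE project to raise sensitivity, which was not done here. A start without a peak in these lists therefore need not be closed. A peak counted when it lay within 1 kb of the start of any coding transcript, and 29.7% of the 18838 protein-coding genes had such a peak in either condition. The receptor gene was IL6ST, with a peak in both conditions, at chr5:55290687-55291606 with a score of 54.25 in vehicle and at chr5:55290611-55291580 with a score of 56.47 in gemcitabine cells. The score is the negative log10 of the peak caller's p-value times 10, with a floor of 50, so both peaks lay near the floor. Within 5 kb of such a start the number was again 1 of 10, against 34.4% of genes.

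Peaks inside the genes differed between conditions at IL10RB, LIFR and IL4R. In an intron of IL10RB, 20.8 kb from its start, gemcitabine cells had a peak at chr21:34659081-34659866 with a score of 73.79, higher than 50.0% of the peaks of that list, and vehicle cells had none. LIFR had a gemcitabine peak at chr5:38607811-38609597 with a score of 80.45 over its outermost annotated start, that of a non-coding transcript, which the count at coding starts leaves out. IL4R had a vehicle peak without a counterpart at chr16:27338108-27338944 in an intron with a score of 97.93, and OSMR an intronic peak in both conditions, with scores of 63.66 in vehicle and 56.61 in gemcitabine cells. A gemcitabine peak at chr21:34851956-34852734 lay just past the end of IFNGR2 and over the start of TMEM50B, the gene on the opposite strand. In all, 2 of the 10 genes held a peak that gemcitabine cells alone had, against 15.6% of the 19619 named genes, and 1 held a peak that vehicle cells alone had, against 11.3%.

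The centres of the IL6ST, OSMR and IL10RB peaks of the gemcitabine cells are shown, since they are the open regions of a receptor start, of the gene with the most fragments and of the gene with the largest change. Each is the central 300 bases of the peak on the plus strand of hg19, at chr5:55290946-55291245 for IL6ST, chr5:38872246-38872545 for OSMR and chr21:34659324-34659623 for IL10RB. Capitals mark AP-1 matches.
IL6ST: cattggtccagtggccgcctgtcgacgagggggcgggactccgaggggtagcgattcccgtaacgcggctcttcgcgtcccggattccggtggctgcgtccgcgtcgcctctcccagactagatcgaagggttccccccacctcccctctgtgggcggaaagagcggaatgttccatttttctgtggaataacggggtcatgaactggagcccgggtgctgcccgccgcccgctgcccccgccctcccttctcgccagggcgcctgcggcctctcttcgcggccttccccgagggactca
OSMR: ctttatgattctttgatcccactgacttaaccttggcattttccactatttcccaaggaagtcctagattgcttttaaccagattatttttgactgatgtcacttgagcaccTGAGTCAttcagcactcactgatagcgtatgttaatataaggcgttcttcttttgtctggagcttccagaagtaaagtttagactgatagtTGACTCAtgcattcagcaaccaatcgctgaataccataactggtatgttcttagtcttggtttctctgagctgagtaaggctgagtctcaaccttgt
IL10RB: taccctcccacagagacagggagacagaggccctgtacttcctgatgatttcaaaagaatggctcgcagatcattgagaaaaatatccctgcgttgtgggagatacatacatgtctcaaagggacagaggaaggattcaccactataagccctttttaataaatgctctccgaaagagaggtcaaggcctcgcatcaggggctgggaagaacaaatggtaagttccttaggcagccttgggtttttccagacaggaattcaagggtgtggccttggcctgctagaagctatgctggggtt
The OSMR peak held 2 AP-1 matches, TGAGTCA and TGACTCA, and 19.3% of the centres of all gemcitabine peaks held at least 1. The IL6ST and IL10RB centres held none of the 4 motifs. GAS was found in 11.5%, the ISRE core in 4.41% and NF-kB in 4.71% of the centres of all gemcitabine peaks.

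Among 34 other chains of the class I and class II cytokine receptors, 19 were tested, of which 4 passed as higher and 0 as lower, with 3 called and a median log2 fold change of 0.36. The 4 were IL7R, the IL-7 and TSLP receptor chain, with 2467 and 2525 fragments in vehicle and 3692 and 3989 in gemcitabine libraries and a change of 0.74 (adjusted p = 2.21e-06 in edgeR), EPOR with 0.94, IL22RA1 with 0.76 and IFNLR1 with 0.58. IL22RA1 and IFNLR1 pair with IL10RB in the receptors for IL-22 and the type III interferons. Their fragments were 81 and 73 against 138 and 103 for IL22RA1 and 108 and 95 against 153 and 127 for IFNLR1. In FPKM, IL22RA1 did not overlap, at 1.74 and 1.58 in vehicle and 3.29 and 2.59 after gemcitabine. IFNLR1 did overlap, at 2.53 and 2.82 in vehicle and 3.52 and 2.24 after gemcitabine, and it was not called. The number that passed was 2 without either vehicle library.

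Further chains that complete the receptors were named for their role after their values were seen. IL10RA, the specific chain for IL-10, had 0 fragments in every library, which at this depth allows up to 0.227 CPM, and CNTFR had 0 to 2. IL2RG, the common chain that IL4R joins for the type I IL-4 receptor, had 1 to 11 fragments, whereas IL13RA1, its partner in the type II receptor, had 2259 to 2458 and a change of 0.07 (adjusted p = 0.491 in edgeR). IL6R was at -0.11 (adjusted p = 0.541) and IL11RA at 0.43 (adjusted p = 0.0537), both on fewer fragments than IL6ST.

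Of 24 ligands of these receptors, 7 were tested, and 4 passed and were called higher. They were LIF with 1.24, IL11 with 1.35, IL6 with 1.06 and EBI3, a subunit of IL-27, with 1.82, and LIF, IL11 and IL6 act through gp130. LIF had 308 and 312 fragments in vehicle and 712 and 646 in gemcitabine libraries, and IL11 191 and 224 against 491 and 484. EBI3 had 3 and 11 against 20 and 26 fragments, while IL27, the other subunit, had 2 fragments in the first vehicle library and 0 in the others. The interferon genes IFNB1, IFNG, IFNK, IFNW1, IFNL1, IFNL2 and IFNL3 and the cytokine genes OSM, IL10, IL13, IL22, IL26 and IL31 had 0 fragments in every library. Among the listed interferons IFNE was the one tested, with 24 and 27 fragments in vehicle and 24 and 12 in gemcitabine libraries. IFNA1, the only interferon alpha gene of the list, had 1 to 3, and the other interferon alpha genes were not examined.

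Of the 12 Janus kinases, STAT factors and IRF9, all were tested, 6 passed as higher and 1 as lower, and the median log2 fold change was 0.26. STAT2 rose by 1.02 (adjusted p = 7.73e-07 in edgeR) and IRF9 by 1.01 (adjusted p = 0.000673). STAT2 and IRF9 are parts of the complex ISGF3 below the type I interferon receptor, and TYK2, the kinase bound to IFNAR1, rose by 0.36 (adjusted p = 0.000632). STAT5B fell with -0.58 (adjusted p = 1.26e-05), and STAT3, the main factor below gp130, was at -0.15 (adjusted p = 0.108). Without the second vehicle library 1 of the 12 passed as higher. Among the negative regulators 16 were tested, 5 passed as higher and 2 as lower, with a median of -0.07. PTPN1 rose by 0.31, SOCS6 by 0.37, SOCS1 by 1.23 and PIAS4 by 0.25, and PTPN11 fell with -0.39. SOCS1, an inhibitor of the interferon receptors, had 20 and 14 fragments in vehicle and 39 and 35 in gemcitabine libraries. SOCS3, which binds gp130 and was named after its values were seen, fell with -0.32 (adjusted p = 0.0196 in edgeR). Its FPKM overlapped between conditions, at 28.3 and 20.1 in vehicle and 18.2 and 20.5 after gemcitabine. The FPKM of PIAS4 overlapped too, at 47.4 and 38.8 against 45.7 and 46.6, while PTPN1, SOCS6, SOCS1 and PTPN11 did not overlap. Without the first or the second vehicle library 0 and 1 of these regulators passed as higher.

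Genes known to be induced below the receptors are given by list, with no test between lists. Of 28 type I interferon target genes 25 were tested, of which 15 passed and 13 were called higher, with a median log2 fold change of 0.93. They included RIGI, a sensor of viral RNA, with 1.43, IFIT1 with 2.08, IFI44 with 1.49 and SAMD9L with 2.18, while BST2, the gene with the highest level in the list, was at -0.02 (adjusted p = 0.817 in edgeR) and ISG15 rose by 0.93. Of 18 interferon gamma targets 12 were tested, 7 passed as higher and 4 were called, with a median of 0.74. GBP1 rose by 1.12, IRF1 by 1.44, GBP2 by 0.72, PSMB9 by 0.77 and PSMB8 by 0.37, and WARS1 was at 0.15 (adjusted p = 0.252). Without the first or the second vehicle library 3 and 4 of them passed. Of 15 STAT3 target genes 10 were tested, 3 passed as higher and 4 as lower, with a median of -0.16. MYC fell with -1.68 and PIM1 with -0.58. PIM1 alone of the genes named from this list overlapped in FPKM, at 40.9 and 23.2 in vehicle and 24.3 and 25.6 after gemcitabine. BCL3 rose by 0.44, TIMP1 by 0.33 and LRG1 by 3.06, LRG1 from 2 and 8 fragments to 47 and 32. Without the second vehicle library 1 of them passed as higher. The lists overlap in what induces their genes, so a list's count does not tell which receptor was at work, or whether any was.

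**Figure D5:**
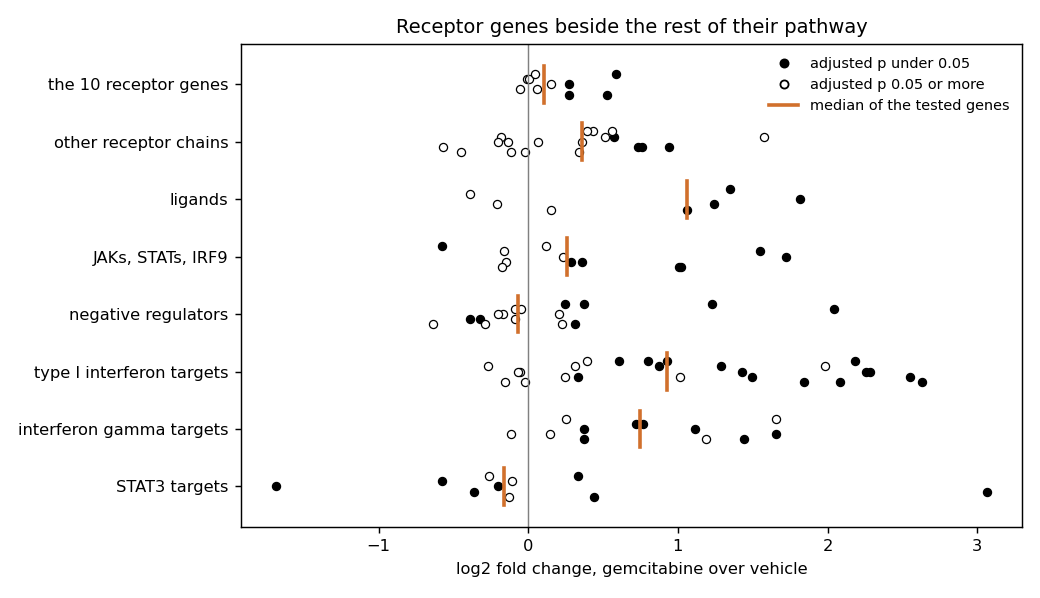
Log2 fold change of each tested gene for the 10 receptor genes and 7 lists of their pathway, gemcitabine over vehicle, filled where the adjusted p in edgeR was under 0.05, with orange bars for the medians. The receptor genes lie within -0.05 to 0.58 around a median of 0.11, and the type I interferon targets around a median of 0.93.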

How the data were processed

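RNA-seq was available for 2 vehicle and 2 gemcitabine samples and DNaseI-seq for 1 sample of each. The authors used TopHat2 2.0.8 to place single-end reads on hg19 and obtained estimated counts and FPKM per protein-coding gene of Gencode V15 with Cuffdiff 2.0.2. The deposited estimated counts are fragments per gene, fractional where reads map to several places (86.8% of values are whole), and the deposited FPKM sums over isoforms, so it moves with the isoform lengths assigned. The authors called DNaseI peaks per condition with MACS at a p-value of 1e-05, and the deposited score is the negative log10 of that p-value times 10.

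After rounding, the 14854 genes whose 4 libraries summed to 10 fragments or more entered edgeR 4.0.16 (quasi-likelihood test, TMM scaling, no covariate). Each standard error was derived from the F statistic. The test was checked on simulated counts. Genes were named by Ensembl identifier (19619 matched, 842 not), and 179 of 181 list entries had a row; SOCS7 and PECAM1 had none. Gene spans and starts came from Gencode 44 lifted to hg19. Motifs were searched in RefSeq promoters of GRCh38.p14 and in hg19 peak centres.

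The 10 genes and all lists were chosen with earlier results of these data known. All 10 were described. Of other lists, up to 4 genes with the smallest adjusted p among those that passed and up to 2 with the highest mean FPKM were named, with every tested neighbour of the chromosome 21 cluster and the readthrough gene. Some genes that meet this rule are not reported here. Receptor partners, ligands at 0 and SOCS3 were named after their values were seen. The settings tried besides were DESeq2 1.42.0, size factors of the DESeq2 type, library totals, no filter, edgeR's own filter, limma 3.58.1 on log2(FPKM + 1), with and without a minimum mean of 0.1 FPKM, and on log2(FPKM + 0.1), each library left out, and other peak distances and scores. In the limma fits a fold change is on the log2(value + pseudocount) scale, which understates changes of low genes. All tests were 2-sided.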

Additional observations from a re-analysis of the deposited data

How the results depend on the processing

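Of the 10 receptor genes, IL10RB kept its direction and passed the test under all 8 other tools, scalings and filters and without each library. Called members numbered 0 in the reported test, 1 with DESeq2-type size factors, DESeq2, no filter, edgeR's own filter and all 3 limma fits, 2 with library totals, 4 by adjusted p alone and 0 to 2 without a library. Those that passed as higher numbered 1 in limma on log2(FPKM + 1) and on log2(FPKM + 0.1), 2 in limma with the FPKM minimum, and 1 to 4 without a library. Of all genes, 6.26% and 5.71% passed as higher without the first and second vehicle library. In the same 3 limma fits IFNAR1 was at 0.49, 0.51 and 0.49 (adjusted p 0.143, 0.127 and 0.0891), IFNGR1 at 0.44, 0.45 and 0.44 (0.0889, 0.0804 and 0.0656), and IL27RA at 0.56, 0.62 and 0.56 (0.0865, 0.0823 and 0.0588). IFNGR1 was at 0.28 (0.0912) in DESeq2. IL6ST passed with library totals at 0.26 (0.0219) and in limma with the FPKM minimum at 0.38 (0.0381). With library totals IFNAR2 was at 0.057 and IFNGR2 at 0.10, and IFNGR2 at 0.00075 with edgeR's own filter, 0.084 in limma with or without the minimum and 0.086 with the smaller pseudocount, against -0.0092 in the reported test. Without single libraries the log2 fold changes ran from -0.16 to 0.052 for IFNAR2, -0.011 to 0.0042 for IFNGR2, -0.11 to 0.11 for LIFR, -0.013 to 0.10 for OSMR, -0.047 to 0.15 for IL4R, 0.06 to 0.28 for IL6ST, 0.25 to 0.32 for IFNAR1, 0.25 to 0.30 for IFNGR1, 0.42 to 0.63 for IL27RA and 0.89 to 4.11 for the readthrough gene.

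Other receptor chains that passed as higher numbered 7 with library totals and 1 in limma with either pseudocount (2 to 6 without a library), and ligands 3 to 5 without a library. In limma on log2(FPKM + 1) and log2(FPKM + 0.1), the numbers were 0 and 1 for Janus kinases, STAT factors and IRF9 (3 with the FPKM minimum, 1 to 7 without a library), 0 and 2 for negative regulators (2 in DESeq2, 0 to 5 without a library), 9 and 9 for type I interferon targets (10 to 15), 3 and 3 for interferon gamma targets (3 to 7) and 0 and 0 for STAT3 targets (1 to 3). The limma fits passed fewer of all genes too, 396 and 613 as higher against 2751; otherwise the cause was not tested. With a score of at least 100, 0 receptor genes had a peak at a coding start. The depth of 13194533 fragments or more limits the low-count chains and ligands, and 2 libraries per condition limit every interval. No paired analysis was possible because the table's own library index gives no link to the numbered replicates in the labels.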
